A study of Mus musculus with 22 samples.

Results

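Nucleus accumbens RNA of male mice that had received antibiotics and morphine together was set against that of mice that had received neither. The comparison held 5 Abx_Morphine libraries and 6 H2O_Saline libraries, chosen by the group named in each library's title, which is 11 of the 22 libraries of the study. Abx_Morphine mice had a gut microbiome depleted by antibiotics that are not absorbed from the gut, and were given 20 mg of morphine per kg of body weight per day for 7 days. H2O_Saline mice had a normal microbiome and were given saline. All were conventionally raised male C57BL/6J mice, 7 to 9 weeks old, with no genetic modification given in the labels, and the labels describe the tissue as bulk. The sources used here name neither the antibiotics nor the route of morphine, nor the time from the last dose to dissection. The labels do not say whether each library came from a different animal, so p-values measure the spread between these libraries, part of which may be technical. The other 11 libraries carried a single treatment, with 6 Abx_Saline libraries (antibiotics and saline) and 5 H2O_Morphine libraries (water and morphine), and are used for the shared estimate of spread and for levels set beside the main ones. With both treatments given at once, the main contrast cannot assign a change to either.

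The nucleus accumbens is the ventral part of the striatum and takes part in reward and motivation. Most of its neurons are GABAergic projection neurons that carry dopamine receptors and make the opioid peptides enkephalin or dynorphin. Morphine acts chiefly on the mu opioid receptor and, in rodents, also activates the hypothalamic-pituitary-adrenal axis, which releases glucocorticoids. Gut bacteria make short-chain fatty acids, and in mice the state of the microbiome is known to affect microglia, myelination and stress hormones. Drd1a, the gene of the dopamine receptor of direct-pathway neurons, had 218, 281, 229, 217 and 271 CPM (the gene's count scaled to all gene-assigned counts of its library) in the 5 Abx_Morphine libraries, against a lowest, median and highest value of 209, 260 and 319 CPM in the H2O_Saline libraries. Penk, the enkephalin precursor, had 1086, 1292, 1272, 1085 and 1249 CPM in Abx_Morphine libraries, against 1240, 1426 and 1629 CPM in H2O_Saline libraries. These striatal markers were thus well above 0 in every library, as the tissue label calls for, and neither passed the main test between the groups, which fits all 22 libraries.

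The groups differed by many small changes. Of 14564 genes tested, 5205 (35.7%) passed at an adjusted p under 0.05 in edgeR's quasi-likelihood test with Benjamini-Hochberg adjustment, with 2559 (17.6%) higher and 2646 (18.2%) lower in Abx_Morphine libraries. The median size of the passing changes was 0.33 on the log2 scale, and 141 higher genes and 63 lower genes differed at least 2-fold. At 1.5-fold the numbers were 535 higher and 385 lower. The libraries of the groups did not overlap in 1489 genes that were higher (10.2%) and in 1570 that were lower (10.8%). The median change over all tested genes was 0.01 (log2).

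**Figure D1:**
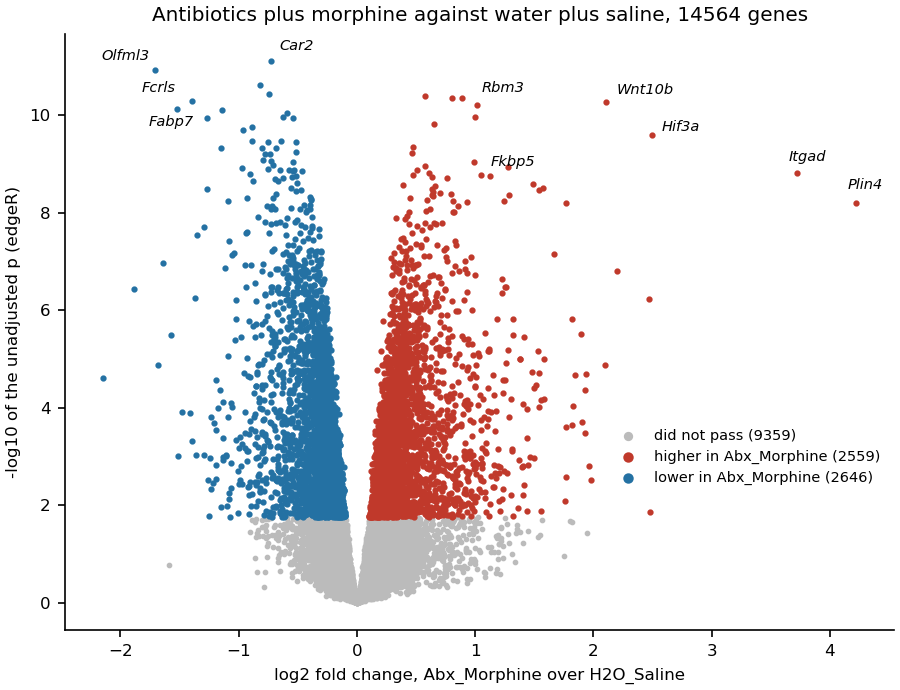
Each of the 14564 tested genes by its log2 fold change, Abx_Morphine over H2O_Saline (x axis), and the -log10 of its unadjusted p from edgeR (y axis). The 2559 higher genes are red and the 2646 lower genes blue; Plin4 and Itgad lie farthest to the right, and Olfml3 and Car2 have the smallest p among lower genes.

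The direction of a call went with transcript length. When genes were divided into 5 equal bins of transcript length, in the shortest bin (371 to 1883 nt), 5.47% of genes were higher and 31.9% lower in Abx_Morphine libraries, whereas in the longest bin (from 5264 nt) 35.2% were higher and 7.02% lower. Within a library, centred log2 CPM changed per doubling of transcript length by a slope of 0.0436 ± 0.0114 in Abx_Morphine libraries (SD, n = 5) and -0.0507 ± 0.0267 in H2O_Saline libraries (SD, n = 6), and the groups did not overlap (two-sided exact permutation test, p = 0.00433, the smallest that 462 splits allow; adjusted over 5 library measures 0.00722). It was 0.0384 ± 0.0074 in H2O_Morphine libraries (SD, n = 5) and -0.0177 ± 0.0362 in Abx_Saline libraries (SD, n = 6). With each library's slope as a covariate, called the length-adjusted fit from here on, 225 genes (1.54%) were higher and 302 (2.07%) lower, and 489 of these 527 had also passed without it. The slope separates the groups with no overlap, so this fit leaves little of the difference between them to test, and the part of the slope in each result was not tested. Counts in the length-adjusted fit are given with the gene groups.

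Other library measures also differed. Reads outside genes made up 11.3% ± 0.946 of counts in Abx_Morphine libraries (SD, n = 5) and 9.55% ± 0.38 in H2O_Saline libraries (SD, n = 6), with no overlap (exact permutation p = 0.00433). A mean of 17479 genes were detected per Abx_Morphine library and 17019 per H2O_Saline library (exact permutation p = 0.00433), with 11123545 to 13701331 gene-assigned counts per Abx_Morphine library and 9678142 to 12266485 per H2O_Saline library (exact permutation p = 0.0476, and up to 0.105 when 1 library was left out). Malat1, an abundant nuclear RNA, was at 323, 385, 435, 1007 and 492 CPM in Abx_Morphine libraries, against 164, 225 and 396 CPM as the lowest, median and highest H2O_Saline values (exact permutation p = 0.013 for the means). Abx_Morphine library 4 stands apart in this gene, and the counts below were also made without it and without Abx_Saline library 6, which left 2277 genes higher and 2228 lower.

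**Figure D2:**
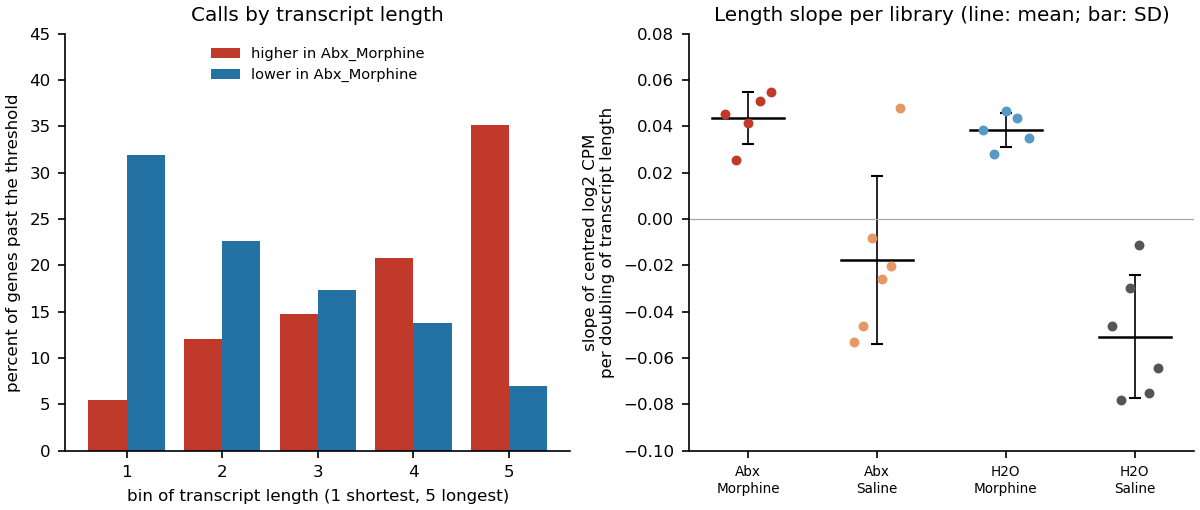
Left, the percent of genes called higher (red) and lower (blue) in Abx_Morphine libraries (y axis) in 5 bins of transcript length (x axis, 1 shortest), where higher calls run from 5.47% to 35.2%. Right, the length slope per doubling of transcript length (y axis) for each library of the 4 groups (x axis; points are libraries, lines means, bars SD); all 5 Abx_Morphine points lie above all 6 H2O_Saline points.

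Among the genes with the largest rise were a lipid droplet protein, a transcription factor of the hypoxia family and a Wnt ligand. Plin4, which coats lipid droplets, had 51.3, 47.6, 59.6, 66.6 and 55.7 CPM in Abx_Morphine libraries, against 1.17, 3.05 and 4.46 CPM in H2O_Saline libraries, an 18.7-fold rise (log2 4.22, SE 0.43; edgeR adjusted p = 1.02e-06). The lowest Abx_Morphine library lay far above the highest H2O_Saline library. Hif3a, a member of the hypoxia-inducible factor family, had 24.9, 21.6, 29.2, 21.9 and 15.9 CPM in Abx_Morphine libraries, against 3.4, 3.83 and 5.11 CPM in H2O_Saline libraries (5.63-fold; edgeR adjusted p = 1.8e-07). Wnt10b, a secreted Wnt ligand, had 6.69, 4.42, 6.73, 6.13 and 4.33 CPM in Abx_Morphine libraries, against 0.793, 1.42 and 1.67 CPM in H2O_Saline libraries (4.31-fold; edgeR adjusted p = 8.73e-08). In none of these genes did the groups overlap, and each also passed in the length-adjusted fit. Itgad, an integrin subunit of myeloid cells and lymphocytes, was at 3.16, 2.71, 3.64, 3.42 and 2.52 CPM in Abx_Morphine libraries, against 0, 0.134 and 0.705 CPM in H2O_Saline libraries. Its fitted change was 13.2-fold (edgeR adjusted p = 4.54e-07), at a level of few counts in the H2O_Saline libraries. Passing in the main test as well were the large rises of Gabrr2, a GABA receptor subunit (5.54-fold), Ccl17, a chemokine (4.61-fold), Atp2c2, a Golgi calcium pump (4.29-fold), and Zbtb16, a zinc-finger transcription factor (3.82-fold). Ccl17 also passed in the length-adjusted fit (edgeR adjusted p = 0.031), whereas Gabrr2 (0.156), Atp2c2 (0.0663) and Zbtb16 (0.623) did not.

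Shprh and Ncapd3 were among the 15 higher genes of smallest p. Shprh, a ubiquitin ligase of DNA damage tolerance, had 65.7, 58.3, 62.6, 57.5 and 64.7 CPM in Abx_Morphine libraries, against 38.7, 41.7 and 43.8 CPM in H2O_Saline libraries, 1.49-fold higher (edgeR adjusted p = 8.73e-08). Ncapd3, a condensin II subunit, had 55.9, 51.9, 58.9, 61.9 and 55.5 CPM in Abx_Morphine libraries, against 29.4, 32.4 and 34.9 CPM in H2O_Saline libraries (1.75-fold; edgeR adjusted p = 8.73e-08). Uvssa, a factor of transcription-coupled DNA repair, was 2.43-fold higher, with Abx_Morphine library 2 at 18.1 CPM, the other Abx_Morphine libraries at 25.1 CPM or more and the H2O_Saline libraries at 11.2 CPM or less. The groups did not overlap in any of the 15 higher genes of smallest p, which also held Spaca6 (1.85-fold), the sphingolipid enzyme Kdsr (1.57-fold), the heparan sulfate enzyme Ndst1 (1.39-fold), the nucleolar chromatin factor Baz2a (1.39-fold), Ccdc50 (1.49-fold), the ubiquitin ligase Trip12 (1.42-fold) and the kinase Tnik (1.53-fold). Of these, Trip12 did not pass in the length-adjusted fit (adjusted p = 0.0556).

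Among the genes with the smallest p-values for a fall were an enzyme of oligodendrocytes and proteins of peroxisomes and lysosomes. Car2, carbonic anhydrase of oligodendrocytes, had 108, 112, 94.3, 109 and 123 CPM in Abx_Morphine libraries, against 166, 180 and 195 CPM in H2O_Saline libraries, a ratio of 0.606 (log2 -0.72, SE 0.06; edgeR adjusted p = 8.63e-08). Pex6, an ATPase of peroxisome assembly, had 40.5, 52.9, 41.4, 47.4 and 48.9 CPM in Abx_Morphine libraries, against 76.6, 80.4 and 87.2 CPM in H2O_Saline libraries (ratio 0.567; edgeR adjusted p = 8.73e-08). Neither gene's groups overlapped, and both passed in the length-adjusted fit. Lower as well were Hexa, a lysosomal hexosaminidase (ratio 0.597), Lap3, an aminopeptidase (0.688), Unc5b, a netrin receptor (0.542), Qdpr, which regenerates tetrahydrobiopterin (0.642), Fer1l5, a ferlin (0.54), and Mrps25, a mitochondrial ribosomal protein (0.665). The largest falls among genes of at least 1 CPM in either group included Hist1h2be, a histone gene (ratio 0.271), Klk6, a kallikrein protease of oligodendrocytes (0.32), Ninj2 (0.335), and Il2rg, the common gamma chain of cytokine receptors (0.359). Of these large falls, Hist1h2be passed in the length-adjusted fit (edgeR adjusted p = 0.0318), and Klk6 (0.0662), Ninj2 (0.261) and Il2rg (0.413) did not.

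**Figure D3:**
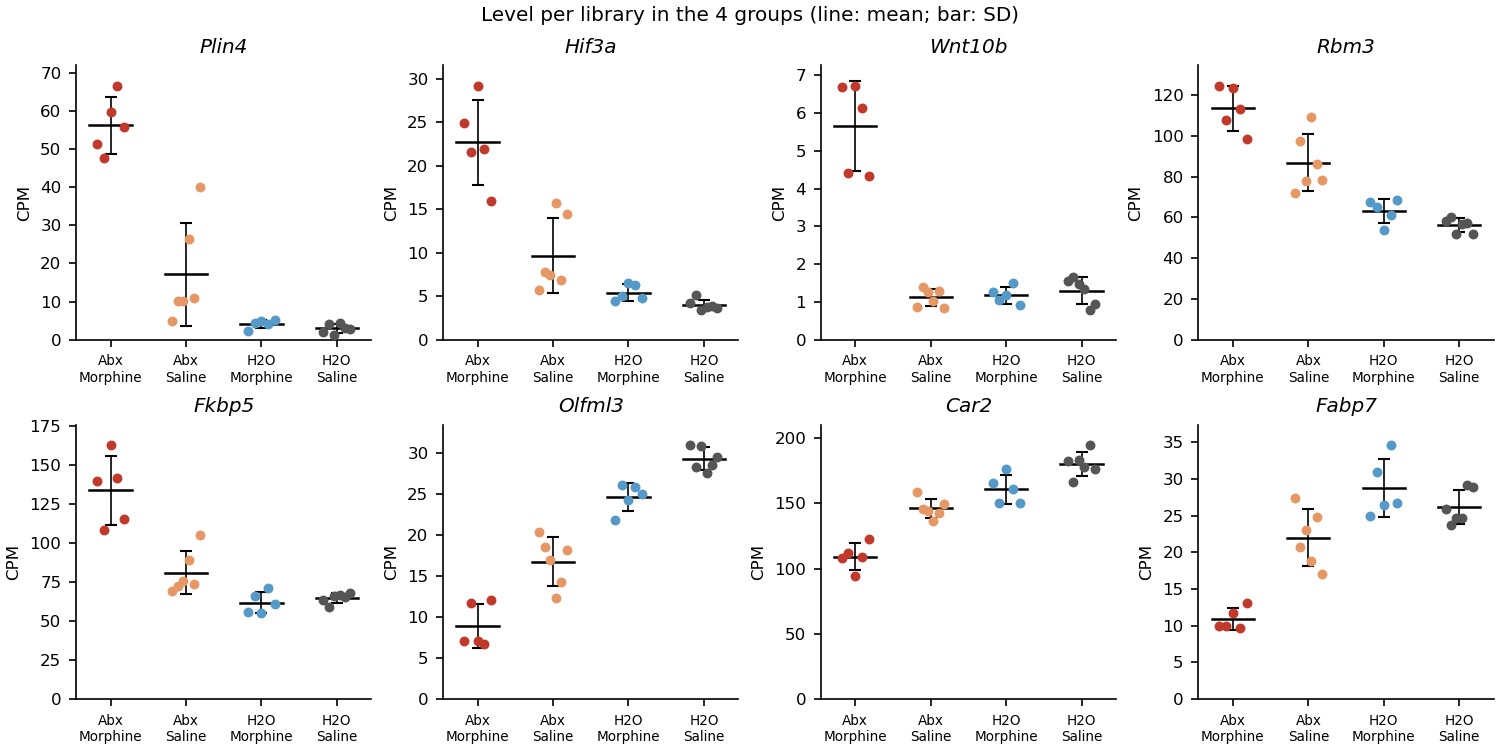
Level in CPM (y axes, from 0) of 8 genes in every library of the 4 groups (x axes; points are libraries, lines means, bars SD). Plin4, Hif3a, Wnt10b, Rbm3 and Fkbp5 are higher and Olfml3, Car2 and Fabp7 lower in the 5 Abx_Morphine libraries than in any H2O_Saline library.

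Genes that glucocorticoids induce rose together. Of 29 measured glucocorticoid-responsive genes, 21 rose (72.4%, against 17.6% of all tested genes), 0 fell and 8 did not pass, with a median change of 0.51 (log2) against 0.01 over all genes. Fkbp5, a co-chaperone of the glucocorticoid receptor, had 140, 108, 163, 142 and 116 CPM in Abx_Morphine libraries, against 59.3, 65.6 and 68.1 CPM in H2O_Saline libraries (2.07-fold; edgeR adjusted p = 4.66e-07). Sult1a1, a sulfotransferase, had 21.8, 19.6, 22.6, 21 and 16.7 CPM in Abx_Morphine libraries, against 5.53, 6.33 and 10.5 CPM in H2O_Saline libraries (2.81-fold; edgeR adjusted p = 5.93e-07). The groups were separate in both genes. Arrdc2, an arrestin-domain protein, rose 2.43-fold and Map3k6, a stress-activated kinase, 1.91-fold. Sgk1, a kinase, rose by 0.81 and Tsc22d3, the gene of the anti-inflammatory protein GILZ, by 0.45 on the log2 scale. In the length-adjusted fit neither Sgk1 (edgeR adjusted p = 0.251) nor Tsc22d3 (0.557) passed. The metallothionein genes Mt1 (log2 -0.02) and Mt2 (-0.19) and Ddit4 (0.09) did not pass. In a fit of only the groups compared, Mt2 passed as lower (edgeR adjusted p = 0.0137). The summed level of the list was 1954 to 2274 CPM in Abx_Morphine libraries and 1463 to 1565 CPM in H2O_Saline libraries, and 9 members rose in the length-adjusted fit.

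Both cold-inducible genes and many clock genes rose, while immediate early genes leaned higher but were called at a share near that of all genes. Of 19 circadian clock genes 9 rose (47.4%, against 17.6% of all tested genes) and 0 fell. Ciart, a repressor in the clock loop, had 34, 40.2, 34.2, 33.5 and 33.7 CPM in Abx_Morphine libraries, against 19.7, 20.7 and 22 CPM in H2O_Saline libraries (1.7-fold; edgeR adjusted p = 4.91e-07). Per1, a clock repressor that glucocorticoids also induce, rose 1.59-fold, and Cry1 and Cry2, its partners, 1.37-fold and 1.26-fold. Arntl (log2 -0.10), Dbp (-0.27) and Nr1d1 (0.07) did not pass. Dbp passed as lower in a fit of only the groups compared (edgeR adjusted p = 0.02) and in DESeq2's test (0.0429). It also passed with the replicate number as a block (edgeR adjusted p = 0.0459) and without Abx_Morphine library 2 (0.0172). The sources used here state no time of death. Rbm3, an RNA-binding protein induced by mild cold, had 125, 108, 124, 113 and 98.6 CPM in Abx_Morphine libraries, against 51.8, 57.1 and 60.3 CPM in H2O_Saline libraries (2.02-fold; edgeR adjusted p = 8.85e-08). Cirbp, its relative, rose 1.64-fold, and the groups overlapped in neither. Of 26 immediate early genes, which neuronal activity induces, 6 rose (23.1%, near the 17.6% of all tested genes) and 0 fell. Their fitted change was above 0 in 22 and below 0 in 4, with a median of 0.41 (log2) against 0.01 over all genes. Nr4a3, an orphan nuclear receptor, had 21.7, 23.3, 22.6, 28 and 18.4 CPM in Abx_Morphine libraries, against 3.04, 8.53 and 14.1 CPM in H2O_Saline libraries (2.71-fold; edgeR adjusted p = 0.000972). Nr4a1 rose 2.25-fold, Maff 2.47-fold and Fosl2 1.64-fold, while Fos (log2 0.88), Arc (0.51) and Egr1 (0.41) did not pass. In a fit of only the groups compared, Fos (edgeR adjusted p = 0.0306) and Egr1 (0.00789) did pass, and Egr1 also passed in DESeq2's test (0.0401). Of these lists, 2 clock genes, both cold-inducible genes and 0 immediate early genes passed in the length-adjusted fit.

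The promoters of 4 genes that passed are shown because they hold a response element known for their gene group. They run from 250 bases before to 50 after the gene start in RefSeq on build GRCm38.p6, and capitals mark the element. Those of Map3k6 (chr4:133240568-133240867, plus strand) and Ciart (chr3:95882179-95882478, minus strand) belong to genes that rose, and those of Pdia6 (chr12:17266339-17266638, plus strand) and Hsph1 (chr5:149636287-149636586, minus strand) to genes that fell.
Map3k6: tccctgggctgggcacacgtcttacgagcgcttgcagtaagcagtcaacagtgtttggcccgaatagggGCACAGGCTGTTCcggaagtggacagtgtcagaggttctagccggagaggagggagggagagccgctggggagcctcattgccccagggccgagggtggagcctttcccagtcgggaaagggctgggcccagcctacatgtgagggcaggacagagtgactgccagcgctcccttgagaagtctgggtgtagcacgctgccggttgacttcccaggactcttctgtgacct
Ciart: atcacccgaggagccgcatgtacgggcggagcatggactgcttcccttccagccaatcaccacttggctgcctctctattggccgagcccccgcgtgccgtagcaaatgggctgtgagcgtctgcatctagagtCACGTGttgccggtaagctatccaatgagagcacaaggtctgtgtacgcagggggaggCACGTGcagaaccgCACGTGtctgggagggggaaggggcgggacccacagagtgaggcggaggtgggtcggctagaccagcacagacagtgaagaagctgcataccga
Pdia6: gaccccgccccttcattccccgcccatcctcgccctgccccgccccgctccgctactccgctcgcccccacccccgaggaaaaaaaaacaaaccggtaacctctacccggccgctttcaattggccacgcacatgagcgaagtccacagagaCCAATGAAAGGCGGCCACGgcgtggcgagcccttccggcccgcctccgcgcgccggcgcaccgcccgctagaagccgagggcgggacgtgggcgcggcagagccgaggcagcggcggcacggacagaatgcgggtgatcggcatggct
Hsph1: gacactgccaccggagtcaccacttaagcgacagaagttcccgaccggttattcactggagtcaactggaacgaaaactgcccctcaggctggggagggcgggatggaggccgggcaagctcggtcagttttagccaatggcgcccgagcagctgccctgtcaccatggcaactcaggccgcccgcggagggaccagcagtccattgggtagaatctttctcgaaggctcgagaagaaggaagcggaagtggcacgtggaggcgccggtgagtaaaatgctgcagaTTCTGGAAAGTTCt
Both strands were searched. The glucocorticoid response element was searched as the half-sites GNACA and TGTNC with 3 bases between them, and was in 4 of 24 glucocorticoid-responsive genes with a promoter (16.7%) and in 0.422% of the 10910 tested genes with one. The E-box CACGTG was in 5 of 17 clock genes (29.4%) and in 11.4% of tested genes, and 3 copies stand in the Ciart promoter. Among 27 heat shock and unfolded protein response genes, the ER stress response element, CCAAT and CCACG with 9 bases between them, was in 6 (22.2%, against 0.174% of tested genes) and the heat shock element, GAA, TTC and GAA with 2 bases between each, in 4 (14.8%, against 0.623%). A match of letters is a description of the promoter and not a measured binding site. The shares count list members whether or not they passed, so they do not bear on the change between the groups. Sgk1, Mt1, Map3k6 and Fam107a held the glucocorticoid response element, and Mt1 among them did not pass the main test.

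Heat shock and unfolded protein response genes, which encode chaperones of the cytosol and the endoplasmic reticulum, fell. Of 32 members 23 fell (71.9%, against 18.2% of all tested genes) and 0 rose, with a median of -0.26 (log2). Hsph1, a cytosolic chaperone, had 249, 313, 250, 270 and 274 CPM in Abx_Morphine libraries, against 397, 418 and 480 CPM in H2O_Saline libraries (ratio 0.637; edgeR adjusted p = 4.25e-07). Pdia6, a disulfide isomerase of the endoplasmic reticulum, had 79.7, 87.9, 81.4, 82.4 and 82.4 CPM in Abx_Morphine libraries, against 110, 114 and 137 CPM in H2O_Saline libraries (ratio 0.699; edgeR adjusted p = 2.1e-07). No Abx_Morphine library reached the lowest H2O_Saline library in either gene. Calr, a calcium-binding chaperone, also had a ratio of 0.699 and Hsp90b1 one of 0.824. Hspa5, the main chaperone of the endoplasmic reticulum, passed narrowly (log2 -0.25). It missed the threshold when any of 8 of the 11 libraries was left out, at edgeR adjusted p-values of 0.0507 to 0.12, and in a fit of only the groups compared (0.0633). The stress-inducible Hspa1a (log2 -0.05) and Hspa1b (0.18) did not pass. The summed level was 6470 to 6762 CPM in Abx_Morphine libraries and 7254 to 8301 CPM in H2O_Saline libraries, and 7 members fell in the length-adjusted fit.

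Microglial genes were lower almost throughout. Of 28 members 24 fell (85.7%, against 18.2% of all tested genes) and 0 rose, and the median change was -0.56 (log2). The groups did not overlap in 22, all of them lower, against 10.8% of all tested genes. The list's median transcript was 1880 nt, within the shortest bin of transcript length, where 31.9% of genes fell. Olfml3, a secreted protein of microglia, had 7.14, 11.8, 7.13, 6.68 and 12 CPM in Abx_Morphine libraries, against 27.6, 29.1 and 31.1 CPM in H2O_Saline libraries (ratio 0.307, log2 -1.71, SE 0.14; edgeR adjusted p = 8.63e-08). Fcrls, a scavenger receptor-like gene of microglia, had 16.1, 19.4, 10.5, 14.2 and 15.9 CPM in Abx_Morphine libraries, against 37, 40.4 and 42.1 CPM in H2O_Saline libraries (ratio 0.38; edgeR adjusted p = 8.73e-08). Cx3cr1, the fractalkine receptor, had 51.6, 53.7, 48.1, 44.6 and 58 CPM in Abx_Morphine libraries, against 78.3, 82.5 and 85.4 CPM in H2O_Saline libraries (ratio 0.622; edgeR adjusted p = 2.43e-07). In each of these 3 genes all Abx_Morphine libraries lay below all H2O_Saline libraries. Itgam, a complement receptor subunit, had a ratio of 0.575. The complement genes C1qa, C1qb and C1qc fell by 0.69, 0.58 and 0.43 and the purinergic receptor P2ry12 by 0.51 on the log2 scale, while Gpr34 (-0.34), Sall1 (0.07), Fcgr3 (0.06) and Ltc4s (-0.03) did not pass. In these bulk samples fewer cells of a type and less RNA per cell cannot be told apart. The summed level was 719 to 854 CPM in Abx_Morphine libraries and 1066 to 1152 CPM in H2O_Saline libraries, and 9 members fell in the length-adjusted fit.

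Other immune genes moved less uniformly. Of 23 interferon-stimulated and MHC class I genes 10 fell (43.5%, against 18.2% of all tested genes) and 0 rose. B2m, the light chain of MHC class I, had a ratio of 0.78, and Isg15, an interferon-induced ubiquitin-like protein, one of 0.444. Of 23 innate microbial sensor genes 2 rose (8.7%) and 3 fell (13%), below the shares of all tested genes (17.6% higher, 18.2% lower). Tlr7, a receptor for single-stranded RNA, had 3.98, 3.33, 4.12, 2.8 and 3.82 CPM in Abx_Morphine libraries, against 1.89, 1.93 and 2.81 CPM in H2O_Saline libraries (1.66-fold; edgeR adjusted p = 0.00148), with 1 Abx_Morphine library just below the highest H2O_Saline library. Traf6, a signal adaptor, rose 1.17-fold and Pycard, the inflammasome adaptor, had a ratio of 0.661. Of 6 measured peripheral leukocyte genes, Itgad rose, Itgal, a lymphocyte integrin, fell (ratio 0.504) and 4, among them Ptprc (ratio 0.751), did not pass. Ptprc passed without H2O_Saline library 4 (edgeR adjusted p = 0.0478) or Abx_Morphine library 5 (0.0344). No gene of the interferon or sensor lists passed in the length-adjusted fit, and of the leukocyte genes 1, Itgad, did.

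Myelin genes fell as a group. Of 28 members 21 fell (75%, against 18.2% of all tested genes) and 1 rose, with a median of -0.41 (log2). The list's median transcript was 2395.5 nt, within the bin of 1884 to 2797 nt, where 22.6% of genes fell. Gjb1, a gap junction gene of myelinating cells, had 8.32, 9.61, 7.52, 7.3 and 10.8 CPM in Abx_Morphine libraries, against 17.6, 19.7 and 20.6 CPM in H2O_Saline libraries (ratio 0.453; edgeR adjusted p = 9.59e-08). Ugt8a, which makes galactocerebroside for myelin, had 26, 27.8, 23.5, 24.9 and 35.5 CPM in Abx_Morphine libraries, against 48.7, 54.7 and 58.1 CPM in H2O_Saline libraries (ratio 0.513; edgeR adjusted p = 1.45e-07). The groups were separate in both genes. The structural gene Mbp fell by 0.18 and the adhesion gene Mag by 0.58 on the log2 scale, and Apod, an apolipoprotein, was the member that rose (log2 0.54). Mobp (0.04), Cldn11 (-0.12) and Mal (0.05) did not pass. The summed level was 6701 to 7610 CPM in Abx_Morphine libraries and 7952 to 9123 CPM in H2O_Saline libraries, and 8 members fell in the length-adjusted fit.

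Precursor and astrocyte genes were more often lower than higher, whereas progenitor genes were called in both directions. Of 18 genes of oligodendrocyte precursors and newly formed oligodendrocytes 8 fell (44.4%, against 18.2% of all tested genes) and 2 rose (11.1%, against 17.6%). Olig2, a lineage transcription factor, had 17.1, 23.9, 20.3, 17.3 and 19.5 CPM in Abx_Morphine libraries, against 30.6, 33.8 and 38.4 CPM in H2O_Saline libraries (ratio 0.576; edgeR adjusted p = 3.58e-07). Vcan, the proteoglycan versican, rose 1.6-fold. Neither gene's groups overlapped. Of 26 astrocyte genes 9 fell (34.6%) and 2 rose (7.69%), with a median of -0.15 (log2). Among those that fell were S1pr1, a sphingosine phosphate receptor (ratio 0.711), and Aqp4, the water channel of astrocyte endfeet (0.72). Of 22 progenitor and immature neuron genes 6 rose (27.3%, against 17.6% of all tested genes) and 4 fell (18.2%, the share of all tested genes). Fabp7, a fatty acid-binding protein of radial glia and astrocytes, had 9.94, 9.92, 11.7, 9.71 and 13.1 CPM in Abx_Morphine libraries, against 23.8, 25.3 and 29.3 CPM in H2O_Saline libraries (ratio 0.416; edgeR adjusted p = 9.81e-08), with no overlap. Tubb2b, a tubulin of growing neurons, had a ratio of 0.582, whereas Dcx, a microtubule protein of migrating neurons, rose 1.72-fold. The length-adjusted fit left 3 precursor genes, 1 astrocyte gene and 3 progenitor genes lower and 0 higher.

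Vascular genes were mostly lower. Of 26 endothelial genes 16 fell (61.5%, against 18.2% of all tested genes) and 2 rose (7.69%, against 17.6%). Their median was -0.33 (log2). Emcn, an endothelial sialomucin, had 5.51, 5.35, 3.88, 4.5 and 6.27 CPM in Abx_Morphine libraries, against 8.95, 9.8 and 10.6 CPM in H2O_Saline libraries (ratio 0.523; edgeR adjusted p = 2.68e-06). Mfsd2a, a lipid transporter of the blood-brain barrier, had 45.1, 42.5, 47.1, 49.8 and 45 CPM in Abx_Morphine libraries, against 25.6, 29.9 and 36.9 CPM in H2O_Saline libraries (1.5-fold; edgeR adjusted p = 2.83e-05). The libraries of the groups were separate in both, in opposite directions. Cldn5, the tight junction claudin, fell by 0.45 and Flt1, a VEGF receptor, by 0.39 on the log2 scale, while Pecam1 (-0.16) and the glucose transporter Slc2a1 (0.14) did not pass. Of 16 pericyte and smooth muscle genes 8 fell (50%, against 18.2% of all tested genes) and 0 rose. Vtn, vitronectin (ratio 0.584), and Mcam, an adhesion molecule (0.616), were among those that fell. Of 24 fibroblast and extracellular matrix genes 7 fell (29.2%, against 18.2% of all tested genes) and 4 rose (16.7%, near the 17.6% of all tested genes). Serpinh1, the collagen chaperone, had 7.95, 10.5, 6.89, 10.2 and 11.2 CPM in Abx_Morphine libraries, against 17.9, 20.2 and 25.6 CPM in H2O_Saline libraries (ratio 0.452; edgeR adjusted p = 2.43e-07). In the length-adjusted fit 2 endothelial genes fell and 1 rose, 0 pericyte genes passed, and 2 matrix genes fell and 1 rose.

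Markers of blood and of neighbouring tissue were also read. Alas2, the heme synthesis enzyme of red cells, had 1.27, 2.01, 1.03, 2.87 and 2.96 CPM in Abx_Morphine libraries, against 3.43, 5.59 and 11.2 CPM in H2O_Saline libraries (ratio 0.312; edgeR adjusted p = 0.000204), and 6 globin genes are listed at 0 in every library of the comparison. Of 10 choroid plexus and ependymal genes, Kl, a choroid plexus membrane protein, rose (1.61-fold), Enpp2, autotaxin, fell (ratio 0.691) and 8 did not pass. These calls were 10% each way, against 17.6% higher and 18.2% lower over all tested genes. Of 20 cortical and septal neuron genes 3 rose (15%) and 2 fell (10%), both below the shares of all tested genes. The transcription factors Zic1 (1.7-fold) and Zic2 (1.66-fold) were among those that rose, and Lamp5 (ratio 0.743) among those that fell. The fitted change was above 0 in 14 members and below 0 in 6, with a median of 0.35 (log2), and 0.12 in the length-adjusted fit. The summed level of that list was 842 to 1495 CPM in Abx_Morphine libraries and 666 to 1287 CPM in H2O_Saline libraries. In the length-adjusted fit Alas2 was lower and 0 genes of the other lists passed. The part of dissection in the results was not tested.

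Genes of striatal projection neurons were mostly not called but leaned lower. Of 32 members 7 fell (21.9%, near the 18.2% of all tested genes), 0 rose and 25 did not pass. The fitted change was below 0 in 29 members and above 0 in 3, with a median of -0.25 (log2) against 0.01 over all genes. In the length-adjusted fit 0 members passed, and the median was -0.26. Adora2a, the adenosine receptor of indirect-pathway neurons, had 182, 246, 207, 192 and 258 CPM in Abx_Morphine libraries, against 292, 357 and 445 CPM in H2O_Saline libraries (ratio 0.604; edgeR adjusted p = 0.00929). Gnal, the G protein that couples dopamine receptors to adenylyl cyclase, had 692, 760, 729, 691 and 797 CPM in Abx_Morphine libraries, against 828, 935 and 1050 CPM in H2O_Saline libraries (ratio 0.786; edgeR adjusted p = 0.00388). The groups overlapped in neither gene. Drd2, the dopamine receptor of indirect-pathway neurons, had a ratio of 0.729 and lay at the threshold (edgeR adjusted p = 0.0512). It passed with DESeq2's size factors (0.0495), in DESeq2's test (0.0188), in a fit of only the groups compared (edgeR adjusted p = 0.0101), and without Abx_Morphine library 2 (0.0394) or H2O_Saline library 8 (0.0417). The list's summed level overlapped, at 12183 to 15688 CPM in Abx_Morphine libraries and 13870 to 20059 CPM in H2O_Saline libraries.

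Opioid genes were mostly not called, several of them near the threshold. Of 8 measured opioid peptide and receptor genes 1 rose and 1 fell (12.5% each, against 17.6% and 18.2% of all tested genes), and 6 did not pass. Oprm1, the main receptor of morphine, had 4.79, 5.11, 6.26, 5.82 and 5.62 CPM in Abx_Morphine libraries, against 2.84, 3.47 and 4.77 CPM in H2O_Saline libraries. All 5 Abx_Morphine values lay above the H2O_Saline values, by a narrow margin, but the fitted 1.5-fold difference did not pass (log2 0.59, SE 0.24; edgeR adjusted p = 0.0571). Oprm1 did pass in a fit of only the groups compared (edgeR adjusted p = 0.00482), in DESeq2's test (0.0425), without H2O_Saline library 3 (0.0417), and without Abx_Morphine library 4 and Abx_Saline library 6 (0.0485). Pdyn, the dynorphin precursor, had 260, 288, 316, 259 and 292 CPM in Abx_Morphine libraries, against 334, 383 and 448 CPM in H2O_Saline libraries (ratio 0.73; edgeR adjusted p = 0.048). Its groups did not overlap, yet it missed the threshold when any of 10 of the 11 libraries was left out, at edgeR adjusted p-values of 0.0538 to 0.0992, the exception being H2O_Saline library 6. Oprl1, the nociceptin receptor, was 1.22-fold higher (edgeR adjusted p = 0.019; 0.0605 without Abx_Morphine library 3). Oprk1, the kappa receptor (1.27-fold, edgeR adjusted p = 0.0836), Oprd1, the delta receptor (1.06-fold, 0.655), and Penk (ratio 0.83, 0.17) did not pass. With only the groups compared, Oprk1 (edgeR adjusted p = 0.0161) and Penk (0.00687) passed, and Oprk1 also passed without H2O_Saline library 5 (0.0475). Of 18 striatal interneuron genes 4 fell (22.2%, near the 18.2% of all tested genes) and 1 rose. The 4 that fell were Sst (ratio 0.853) and Npy (0.833), neuropeptides, Th, tyrosine hydroxylase (log2 -0.68), and Slc18a3, the vesicular acetylcholine transporter (0.568), each with no overlap between the groups. No opioid or interneuron gene passed in the length-adjusted fit.

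Synaptic and channel genes were called at shares near or below those of all genes. Of 24 GABA and glycine synapse genes 2 rose and 3 fell, of 28 glutamate receptor genes 3 rose and 6 fell, and of 30 synaptic vesicle and exocytosis genes 4 rose and 4 fell. Grin2a, an NMDA receptor subunit, had 29, 24.3, 23.8, 23.6 and 23.9 CPM in Abx_Morphine libraries, against 10.4, 12.6 and 15 CPM in H2O_Saline libraries (1.94-fold; edgeR adjusted p = 0.00142). Gabra2, a GABA receptor subunit, had 17.5, 26, 23.1, 25.4 and 28.3 CPM in Abx_Morphine libraries, against 35.4, 37 and 40.9 CPM in H2O_Saline libraries (ratio 0.639; edgeR adjusted p = 2.52e-05). The groups did not overlap in either gene, and in the length-adjusted fit Gabra2 passed and Grin2a turned to a log2 change of -0.09. Grm3, a metabotropic glutamate receptor, had a ratio of 0.617. Of 34 voltage-gated channel genes 7 rose (20.6%) and 1 fell. Their median transcript was 8068 nt, against 3259 nt over all genes with a length. Cacna1d and Cacna1e, calcium channel subunits, rose 1.36-fold and 1.44-fold, and Scn2b, a sodium channel beta subunit, fell (ratio 0.695). In the length-adjusted fit 0 voltage-gated channel genes rose and 1 fell, and Cacna1e was at -0.05 (log2). The same fit called 1 gene of the GABA and glycine list and 1 of the glutamate list lower, and 0 vesicle genes.

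**Figure D4:**
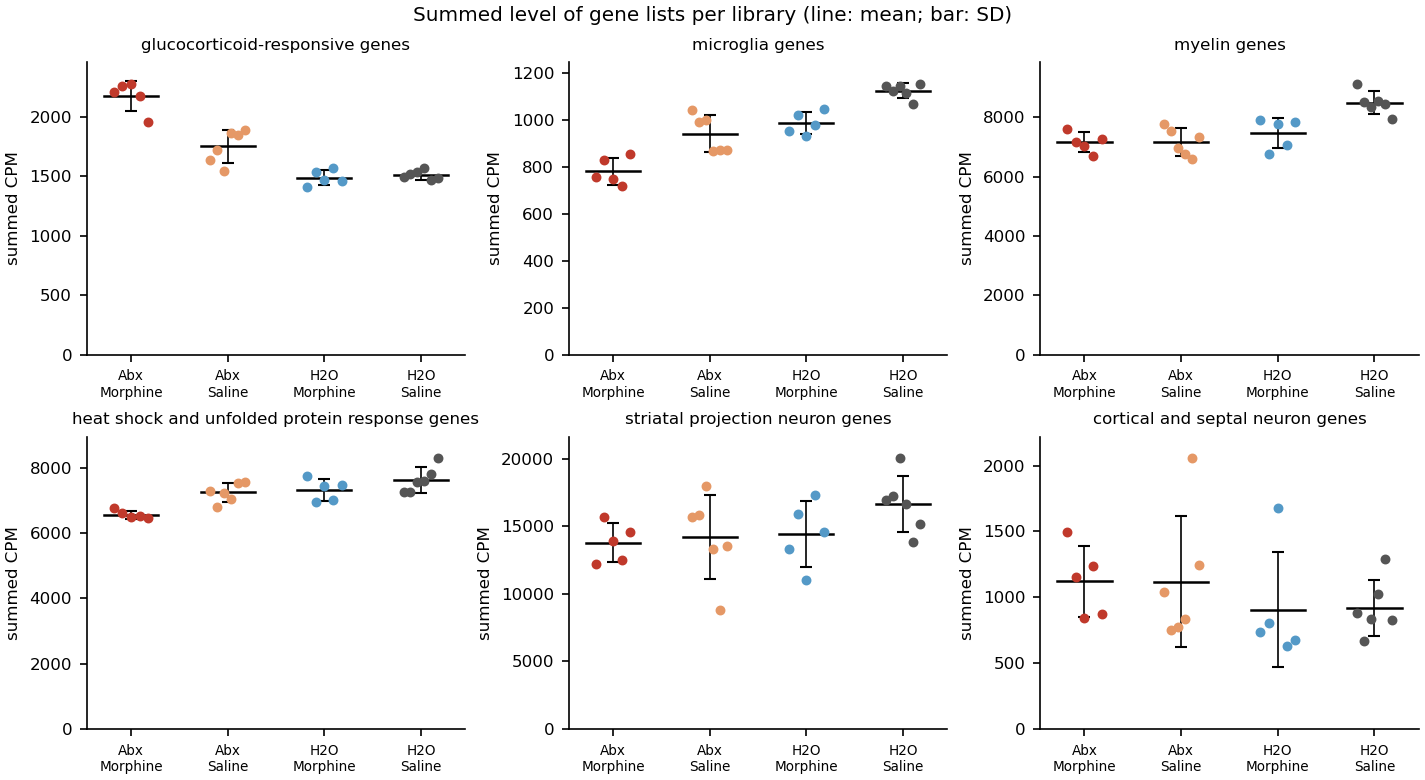
Summed CPM of 6 gene lists (y axes, from 0) in every library of the 4 groups (x axes; points are libraries, lines means, bars SD). Abx_Morphine libraries lie above H2O_Saline libraries in glucocorticoid-responsive genes (1954 to 2274 against 1463 to 1565 CPM), below them in microglia, myelin and heat shock genes, and overlap with them in both neuron lists.

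Genes of energy metabolism and protein synthesis, which have short transcripts, were lower by small amounts. Of 75 nuclear oxidative phosphorylation genes 44 fell (58.7%, against 18.2% of all tested genes) and 0 rose, with a median of -0.16 (log2). Their median transcript was 918 nt, within the shortest bin of transcript length, where 31.9% of genes fell. Atp5d, an ATP synthase subunit, had 167, 177, 161, 166 and 166 CPM in Abx_Morphine libraries, against 204, 214 and 228 CPM in H2O_Saline libraries (ratio 0.782; edgeR adjusted p = 5.7e-06), with no overlap. Of 76 cytosolic ribosomal protein genes 25 fell (32.9%) and 0 rose. This was above the 18.2% of all tested genes but near the 31.9% of the shortest bin, where their median transcript of 925.5 nt lies. The median change was -0.11 (log2) both in the list and in that bin. Rpl28 had a ratio of 0.853 and Rpsa one of 0.814. Members of this family have many processed pseudogenes, and reads that matched more than 1 place are not in the gene counts. Of 30 mitochondrial ribosome and translation genes 13 fell (43.3%, against 18.2% of all tested genes) and 0 rose. Their median transcript of 1279.5 nt also lies in the shortest bin, where 31.9% of genes fell. Tufm, the mitochondrial elongation factor, had 40.2, 42.9, 35.8, 42.5 and 37.9 CPM in Abx_Morphine libraries, against 57.3, 59.6 and 67.8 CPM in H2O_Saline libraries (ratio 0.649; edgeR adjusted p = 9.81e-08). In the length-adjusted fit 0 oxidative phosphorylation genes, 0 ribosomal protein genes and 1 mitochondrial translation gene passed.

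In the lysosomal, antioxidant and lipid synthesis lists 34.4% to 46.4% of genes fell, against 18.2% of all tested genes. Of 31 proteasome genes 6 fell (19.4%, near the share of all genes) and 0 rose, and Psmb6 had a ratio of 0.901. Of 32 lysosomal genes 11 fell (34.4%) and 0 rose, among them Tpp1, a peptidase (ratio 0.792), and Ctsz, a cathepsin (0.725). Of 28 antioxidant and selenoprotein genes 13 fell (46.4%) and 1 rose, with Prdx2, a peroxiredoxin, at 0.835 and Gpx1, a glutathione peroxidase, at 0.808. Of 30 cholesterol and fatty acid synthesis genes 11 fell (36.7%) and 3 rose. Lss, lanosterol synthase, had 33.5, 30.3, 30.7, 35.3 and 34.5 CPM in Abx_Morphine libraries, against 19.2, 22.8 and 25.2 CPM in H2O_Saline libraries (1.46-fold; edgeR adjusted p = 4.15e-06), whereas Fads1, a fatty acid desaturase, had a ratio of 0.833. Of 15 genes that use short-chain fatty acids and ketones 5 fell (33.3%, against 18.2% of all tested genes) and 0 rose. Acss1, which activates acetate in mitochondria, had 19.6, 25.8, 23.9, 24.8 and 26.1 CPM in Abx_Morphine libraries, against 38.6, 40.7 and 46.3 CPM in H2O_Saline libraries (ratio 0.585; edgeR adjusted p = 1.85e-06). Oxct1, the enzyme that commits ketones to oxidation, had 228, 274, 215, 231 and 269 CPM in Abx_Morphine libraries, against 318, 338 and 354 CPM in H2O_Saline libraries (ratio 0.721; edgeR adjusted p = 1.99e-06). The groups did not overlap in either, and 3 members of the list fell in the length-adjusted fit, against 0 proteasome and antioxidant genes, 1 lysosomal gene and 1 cholesterol and fatty acid gene.

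DNA and histone methylation genes were mostly higher. Of 34 members 23 rose (67.6%, against 17.6% of all tested genes) and 1 fell, with a median of 0.29 (log2). Their median transcript was 6704 nt, within the longest bin of transcript length, where 35.2% of genes rose and the median was 0.14. Tet2, which oxidises methylcytosine, had 70.4, 60.8, 75.5, 68.2 and 64.4 CPM in Abx_Morphine libraries, against 35, 38.8 and 40.8 CPM in H2O_Saline libraries (1.77-fold; edgeR adjusted p = 1.3e-06). Kmt2b, a histone methyltransferase, had 144, 145, 156, 147 and 142 CPM in Abx_Morphine libraries, against 89.5, 99.8 and 109 CPM in H2O_Saline libraries (1.49-fold; edgeR adjusted p = 1.9e-06). No library of either group fell within the other's range. Kdm6b, a histone demethylase, rose 1.46-fold. In the length-adjusted fit 3 members rose, among them Kmt2b and Kdm6b but not Tet2 (adjusted p = 0.0709). The list's median was 0.07 (log2) in that fit.

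DNA repair and RNA decay genes rose too. Of 32 DNA repair and p53 target genes 17 rose (53.1%, against 17.6% of all tested genes) and 1 fell. Their median transcript was 4238 nt, within the bin of 3788 to 5263 nt, where 20.8% of genes rose. Xpc, the damage sensor of nucleotide excision repair, had 57.3, 48.2, 64.4, 53.3 and 46.8 CPM in Abx_Morphine libraries, against 24.9, 25.8 and 32.7 CPM in H2O_Saline libraries (1.98-fold; edgeR adjusted p = 3.6e-07). Cdkn1a, a cell cycle inhibitor that p53 and glucocorticoids induce, had 53.1, 38.7, 63.3, 45 and 33.9 CPM in Abx_Morphine libraries, against 18.8, 23.7 and 26.3 CPM in H2O_Saline libraries (2-fold; edgeR adjusted p = 1.03e-05). In neither gene did the groups overlap. Rev3l, the catalytic subunit of a translesion polymerase, rose 1.58-fold and Fancm, a helicase of crosslink repair, 1.76-fold. Of 32 mRNA decay genes 15 rose (46.9%, against 17.6% of all tested genes) and 2 fell. Their median transcript of 4699 nt lies in the same bin as that of the repair genes. Xrn1, the main cytoplasmic exoribonuclease, had 40.2, 34.2, 40.1, 33.5 and 35.5 CPM in Abx_Morphine libraries, against 15, 19.4 and 20.3 CPM in H2O_Saline libraries (2-fold; edgeR adjusted p = 9.81e-08). Dis3, an exosome nuclease, rose 1.69-fold. Repair genes that rose in the length-adjusted fit numbered 5 and decay genes 4. Of 10 abundant nuclear noncoding RNA genes 2 rose (20%, near the 17.6% of all tested genes) and 0 fell. Those that rose were Miat (2.14-fold) and Snhg11 (1.44-fold), while Meg3 (1.36-fold, edgeR adjusted p = 0.0502) and Malat1 (2.16-fold, 0.15) did not pass. Meg3 passed in DESeq2's test (0.041), in limma-voom (0.0487), in a fit of only the groups compared (edgeR adjusted p = 0.0248), and when Abx_Morphine library 1 or 2 or H2O_Saline library 4 or 6 was left out (0.035 to 0.046). Malat1 passed with only the groups compared (edgeR adjusted p = 0.0245) and without Abx_Morphine library 4 and Abx_Saline library 6 (0.0328). No noncoding gene of the list passed in the length-adjusted fit.

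Of 31 Wnt pathway genes 9 rose (29%, against 17.6% of all tested genes) and 3 fell (9.68%, against 18.2%). Beside Wnt10b, the co-receptor Lrp6 rose 1.28-fold and the receptor Fzd1 1.74-fold, and Lef1, a transcription factor at the end of the pathway, had a ratio of 0.623. Fzd1 had 8.86, 9.76, 10.3, 13 and 10.2 CPM in Abx_Morphine libraries, against 4.68, 5.77 and 7.82 CPM in H2O_Saline libraries, with no overlap. Wnt10b was the 1 member that rose in the length-adjusted fit, and 0 fell.

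**Figure D5:**
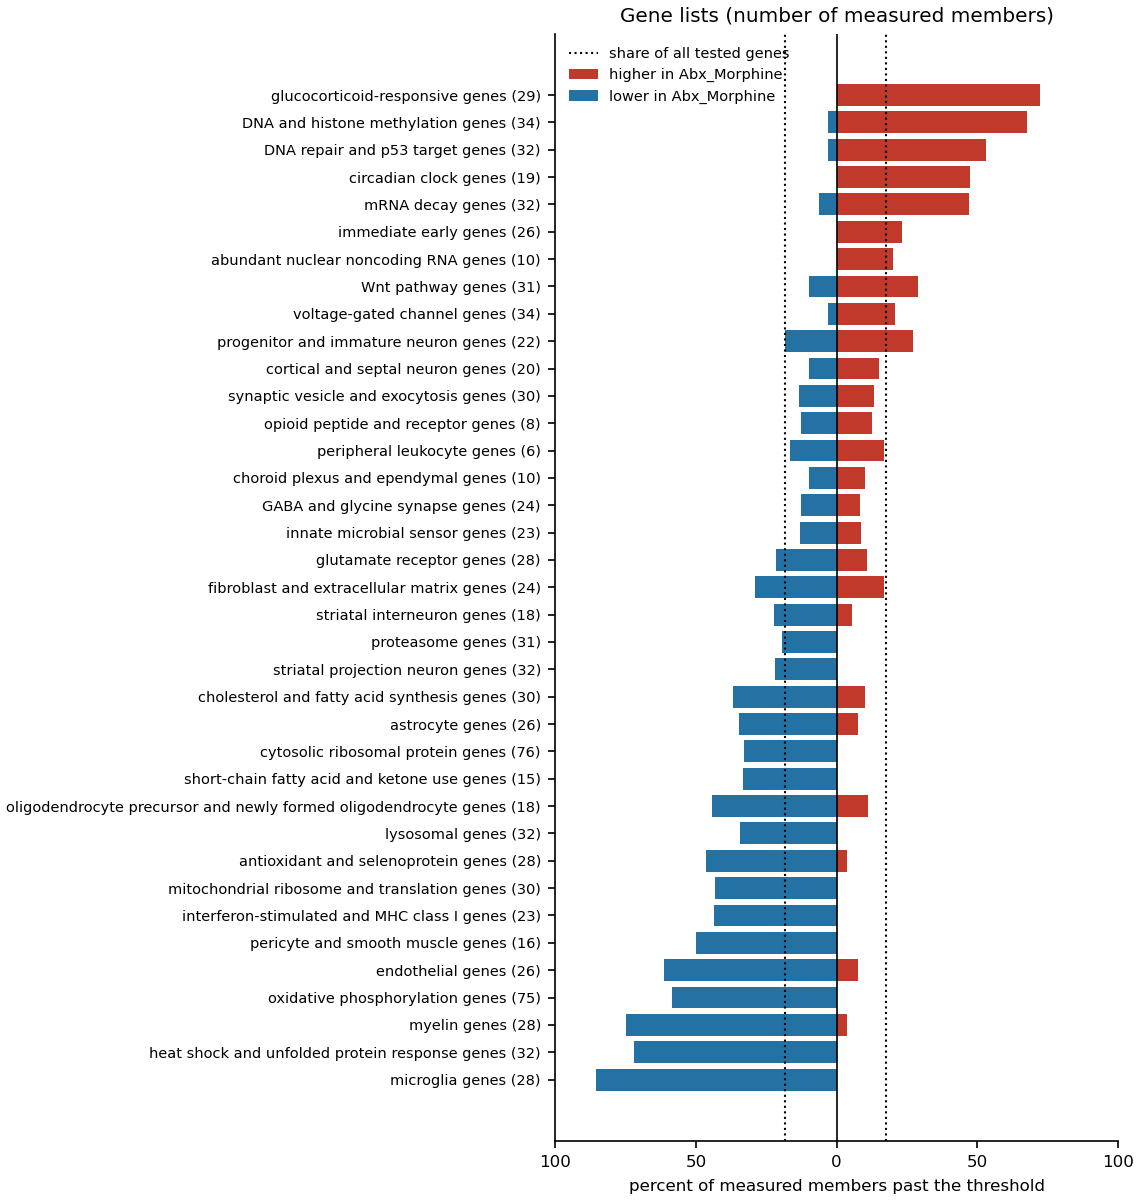
Percent of the measured members of each gene list that passed as higher (red, to the right) or lower (blue, to the left) in Abx_Morphine libraries (x axis; lists on the y axis with their number of measured members; lists of under 5 members are left out). Dotted lines mark the shares of all tested genes, 17.6% higher and 18.2% lower; glucocorticoid-responsive genes reach 72.4% higher and microglia genes 85.7% lower.

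Whether the change with both treatments departed from the sum of the changes with each was tested as an interaction over all 4 groups. Of 14564 genes 68 passed (0.467%), with 32 positive (0.22%) and 36 negative (0.247%) departures, and 1791 had an unadjusted p under 0.05. Wnt10b had the smallest p, with 5.66 ± 1.2 CPM in Abx_Morphine libraries (SD, n = 5), 1.12 ± 0.234 in Abx_Saline libraries (n = 6), 1.18 ± 0.226 in H2O_Morphine libraries (n = 5) and 1.3 ± 0.355 in H2O_Saline libraries (n = 6). Its departure was 2.47 (log2, SE 0.30; edgeR adjusted p = 0.000313). The rise thus stood in the group with both treatments, and the levels of the other groups lay within each other's spread.

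Glucocorticoid-responsive genes were among those that departed upward. Cdkn1a averaged 46.8 ± 11.7 CPM in Abx_Morphine libraries, 24.9 ± 2.37 in Abx_Saline libraries, 18.3 ± 3.4 in H2O_Morphine libraries and 23.5 ± 2.76 in H2O_Saline libraries (SD, same n), a departure of 1.26 (log2, SE 0.20; edgeR adjusted p = 0.00826). Fkbp5 averaged 134 ± 22.1 CPM in Abx_Morphine libraries, 81.1 ± 13.8 in Abx_Saline libraries, 61.9 ± 6.85 in H2O_Morphine libraries and 64.8 ± 3.14 in H2O_Saline libraries (departure 0.79, SE 0.15; edgeR adjusted p = 0.0206). Arrdc2 (1.05) and Map3k6 (0.96) departed in the same direction, as did Mfsd2a (0.68). The departure of the myelin gene Cldn11 was also positive (0.38), but its mean was highest in H2O_Saline libraries. Cldn11 averaged 177 CPM in Abx_Morphine, 155 in Abx_Saline, 168 in H2O_Morphine and 192 in H2O_Saline libraries. With both treatments it was thus lower by less than the single changes add up to, and not raised. For Plin4 the means were 56.2 ± 7.39 CPM in Abx_Morphine libraries, 17.1 ± 13.4 in Abx_Saline libraries, 4.13 ± 1.09 in H2O_Morphine libraries and 2.98 ± 1.21 in H2O_Saline libraries, with a departure that did not pass (edgeR adjusted p = 0.443).

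Downward departures included Fabp7, at a mean of 10.9 ± 1.49 CPM in Abx_Morphine libraries, 22 ± 3.9 in Abx_Saline libraries, 28.8 ± 3.99 in H2O_Morphine libraries and 26.2 ± 2.35 in H2O_Saline libraries (departure -1.15, SE 0.16; edgeR adjusted p = 0.00163). Serpinh1 (-0.69), Fer1l5 (-0.60), Tubb2b (-0.50) and Tufm (-0.38) departed likewise, and Ncapd3 upward (0.45). The departures of Ncapd3, Serpinh1, Tubb2b and Tufm missed the threshold when Abx_Morphine library 1 or 3, among others, was left out. For the microglial Olfml3 the means were 8.95 ± 2.71 CPM in Abx_Morphine libraries, 16.8 ± 2.97 in Abx_Saline libraries, 24.6 ± 1.7 in H2O_Morphine libraries and 29.4 ± 1.41 in H2O_Saline libraries, so that each group with a treatment was lower, and the departure did not pass (edgeR adjusted p = 0.134). The length slope also differed between the single-treatment groups, as given above, and its part in these departures was not tested.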

How the data were processed

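The authors deposited raw read counts per gene, aligned with STAR 2.4.0 per the submitters' processing notes; the counting tool, genome build, annotation and strand setting are not stated, so antisense and overlapping genes are not told apart. RNA was TRIzol-extracted and amplified with a SMARTer kit, per the labels. Summary entries (20.6% to 26.4% of counts) were removed, leaving 24061 genes, of which 14564 passed filterByExpr by group. Names of 24 tested genes that a spreadsheet had turned into dates are not reported. R 4.3.3 and edgeR 4.0.16 fitted all 22 libraries in 4 groups with TMM factors (0.972 to 1.03) and robust quasi-likelihood tests, two-sided, Benjamini-Hochberg adjusted over all tested genes. CPM values use gene-assigned counts and TMM. Library measures were compared by two-sided exact permutation tests. Transcript lengths came from GENCODE (95.4% matched by symbol), promoters and motif shares from RefSeq, build GRCm38.p6. DESeq2 1.42.0 and limma 3.58.1 served as alternatives, and the tests were checked on simulated data.

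The comparison, the 39 gene lists (1052 of 1055 symbols matched) and the naming rules were chosen with earlier results of these data known. Named genes are the 15 higher and 15 lower of smallest p, the 10 of largest change each way, up to 4 per list and fixed reference genes, and some that the rule selects are not printed. The following were picked after their values were seen: Sgk1, Tsc22d3, Mt1, Mt2, Ddit4, Arntl, Dbp, Nr1d1, Fos, Arc, Egr1, Hspa5, Hspa1a, Hspa1b, C1qa, C1qb, C1qc, P2ry12, Gpr34, Sall1, Fcgr3, Ltc4s, Mbp, Mag, Apod, Mobp, Cldn11, Mal, Cldn5, Flt1, Pecam1 and Slc2a1. The few same-numbered libraries of the compared groups did not deviate together, which cannot decide whether the numbers pair samples.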

Additional observations from a re-analysis of the deposited data

Results flagged for a closer look

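Among 328 sets of group values examined, 15 (4.57%) held a library far from the others of its group, where chance alone flags about 1 in 20. In Abx_Morphine libraries, library 1 was high in Vcan (51.4 CPM, others 46 to 47.5), Grin2a (29 CPM, others 23.6 to 24.3) and Mbp (2671 CPM, others 2314 to 2390). Abx_Morphine library 2 was low in Uvssa (18.1 CPM, others 25.1 to 26.6) and high in Ciart (40.2 CPM, others 33.5 to 34.2), Rpsa (470.57 CPM, others 428 to 438) and Ddit4 (81.7 CPM, others 51.7 to 56.2). Library 3 was high in Mt1 (182 CPM, others 163 to 166). Library 4 was high in Malat1 (1007 CPM, others 323 to 492) and low in Oprk1 (41.6 CPM, others 50.1 to 52.6). In H2O_Saline libraries, library 4 was low in Ptprc (2.51 CPM, others 3.26 to 3.52) and library 5 was high in Scn2b (527 CPM, others 451 to 476) and had the fewest detected genes (16806, others 17018 to 17102). H2O_Saline library 6 was high in Malat1 (396 CPM, others 164 to 239.5) and library 8 in Itgad (0.705 CPM, others 0 to 0.251).

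The change with morphine under antibiotics differed from that under water, by the edgeR interaction test, in 13 named genes. The difference was positive in Wnt10b (2.47, adjusted p = 0.000313), Cdkn1a (1.26, 0.00826), Arrdc2 (1.05, 0.0206), Map3k6 (0.96, 0.0206), Fkbp5 (0.79, 0.0206), Mfsd2a (0.68, 0.0173), Ncapd3 (0.45, 0.048) and Cldn11 (0.38, 0.0335), in log2 units. It was negative in Fabp7 (-1.15, adjusted p = 0.00163), Serpinh1 (-0.69, 0.048), Fer1l5 (-0.60, 0.0206), Tubb2b (-0.50, 0.0386) and Tufm (-0.38, 0.0281). The smallest of these by p, Wnt10b, passed under every alternative listed for the interaction.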

How the results depend on the processing

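Under other scalings, filters and tests the number of genes called lay within 1.5 times of 5205. With the length slope as covariate it was 527, with 225 higher and 302 lower, and Cacna1e (-0.0487) and Grin2a (-0.0901) turned negative on the log2 scale without passing. DESeq2 shared 2492 of the higher and 2586 of the lower genes. Leaving out 1 library gave 4430 to 5078 genes. The interaction count of 68 became 185 with DESeq2's test and 30 to 100 when a library was left out, lowest without Abx_Morphine library 3 and highest without Abx_Morphine library 5. With the replicate number as a replicate block it was 10, and the main comparison had 1892 higher and 2028 lower genes. Same-numbered libraries of the compared groups correlated at 0.0178, -0.054 and -0.114, and differently numbered ones at -0.32 to 0.309. So few same-numbered pairs cannot decide whether the numbers pair the samples. Of 131 named genes that passed, 66 did not pass and kept their direction in the length-adjusted fit, 5 with the share of reads outside genes as covariate and 3 when some library was left out, while 11 named genes that had not passed did so in a fit of only the groups compared. The difference in gene-assigned counts was 1081240 to 1757570 when a library was left out, at exact permutation p-values of 0.00952 to 0.105. Depth limits what can be said of genes at a few CPM, such as Itgad.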
